A study of Mus musculus with 8 samples.

Results

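The potassium channel genes examined here are the protein-coding genes on the autosomes whose symbols start with Kcn. There were 92 of them among 20807 autosomal protein-coding genes in the GENCODE vM21 annotation of the mouse genome build mm10 (GRCm38). Kcnd1 and Kcne1l on chromosome X and 5 antisense genes with Kcn symbols were outside this definition. Each gene was described by the peaks of H3K56ac, histone H3 acetylated at lysine 56, that lay within 3 kb of any of its annotated transcription start sites (TSSs) or within the gene. A peak that reached into the 3 kb window by 1 bp or more is called a promoter peak.

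Potassium channels let potassium ions leave or enter the cell along their gradient and so set the resting membrane potential and end action potentials. Pore-forming subunits open with voltage (Kcna, Kcnb, Kcnc, Kcnd, Kcnh and Kcnq), with intracellular calcium or sodium (Kcnma1, Kcnn and Kcnt), pass current preferentially inward (Kcnj), or leak at rest (Kcnk, the two-pore-domain channels). Silent modifier subunits (Kcnf, Kcng, Kcns and Kcnv) and auxiliary subunits (Kcnab, Kcne, Kcnip and Kcnmb) change how these pores open or reach the membrane. In cells of the myogenic lineage, hyperpolarization by the inward rectifier Kir2.1, the product of Kcnj2, precedes myoblast differentiation and fusion, and SIRT6, the enzyme deleted in the study, is a deacetylase that acts on H3K56ac.

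The study mapped H3K56ac by ChIP-seq, the sequencing of DNA that an antibody pulls down with its histones, in freshly isolated muscle stem cells (MuSCs) of C57BL/6 mice, to learn where the mark lies and how it changes without Sirt6. The 8 libraries form 4 groups, with 2 libraries each of Control H3K56ac, Control input DNA, Sirt6mKO H3K56ac and Sirt6mKO input DNA. The labels give Control as wild type, and Sirt6mKO mice carry floxed Sirt6 alleles recombined by Cre from the Pax7 locus, so that the deletion reaches cells with a history of Pax7 expression. Input DNA is chromatin sequenced without immunoprecipitation, and the age of the animals behind these libraries was not given in the labels.

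All values below come from a single merged list of 105600 H3K56ac peaks, of which 103492 lie on autosomes. The list has no column for a genotype, a replicate or a peak height, so a peak cannot be tied to the depth of any library, there is no replicate error, and Sirt6mKO was not compared with Control. A peak can stem from Control libraries, Sirt6mKO libraries or both, and its width is that of the union. Shares of genes are given with Wilson 95% intervals that cover counting error only, and no test was made. All 10 MuSC markers examined, among them Pax7, Myf5 and Calcr, had a promoter peak (widest of each from 2720 to 30239 bp). A promoter peak was also listed at 5 of 8 endothelial, 7 of 8 fibro-adipogenic, 7 of 8 mural, 5 of 7 glial, 3 of 8 leukocyte and 2 of 7 neuronal markers. Over all autosomal protein-coding genes the share with a promoter peak was 69.3%, and the median of the widest was 3488 bp. Markers of other cells could also have wide promoter peaks, as did Notch3 (22371 bp), Tek (12975 bp) and Dpt (9775 bp). Pecam1, which encodes CD31, had 5 promoter peaks (widest 3440 bp), whereas Ptprc, which encodes CD45, and Cdh5 had none. The part of other cell types in the peaks at potassium channel genes was not tested.

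Promoter sequences show the range of starting material. RefSeq (GRCm38.p6) gave 93 promoters for 68 of the 92 genes, each running from 250 bases before to 50 bases after an annotated start. The first pair of sequences below holds the most and the fewest CpG dinucleotides among genes with a single RefSeq promoter that lay wholly inside a peak, and the second pair the most and the fewest among those without a promoter peak, where Kcnmb1 was tied with Kcnrg. Kcnn3 and Kcnj2 follow because the results return to them. Sequences run 5′ to 3′ and capitals mark CpG dinucleotides. Kcnmb4, a β subunit of the BK channel, is at chr10:116473474-116473773, minus strand, with 48 CpG. Kcng4, a silent modifier of Kcnb channels, is at chr8:119635631-119635930, minus strand, with 4 CpG. Kcng3, another silent modifier, is at chr17:83631846-83632145, minus strand, with 49 CpG and no base in a peak. Kcnmb1, the smooth muscle β subunit of the BK channel, is at chr11:33962763-33963062, plus strand, with 1 CpG and no base in a peak. Kcnn3, which encodes the small-conductance calcium-activated channel SK3, is at chr3:89519914-89520213, plus strand, with 11 CpG. Kcnj2 is at chr11:111065914-111066213, plus strand, with 18 CpG, and both lie wholly inside a peak.
Kcnmb4: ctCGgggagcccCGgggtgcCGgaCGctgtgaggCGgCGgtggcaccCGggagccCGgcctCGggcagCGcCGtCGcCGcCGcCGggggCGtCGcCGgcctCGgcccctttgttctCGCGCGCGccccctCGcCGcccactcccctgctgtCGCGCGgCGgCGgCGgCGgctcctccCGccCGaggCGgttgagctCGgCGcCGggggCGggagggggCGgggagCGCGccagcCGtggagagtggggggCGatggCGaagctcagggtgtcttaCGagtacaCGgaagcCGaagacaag
Kcng4: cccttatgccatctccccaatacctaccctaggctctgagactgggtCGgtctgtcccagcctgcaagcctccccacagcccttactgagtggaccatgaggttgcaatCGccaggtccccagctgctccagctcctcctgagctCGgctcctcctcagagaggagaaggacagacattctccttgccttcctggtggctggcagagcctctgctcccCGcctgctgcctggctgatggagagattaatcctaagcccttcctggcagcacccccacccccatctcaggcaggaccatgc
Kcng3: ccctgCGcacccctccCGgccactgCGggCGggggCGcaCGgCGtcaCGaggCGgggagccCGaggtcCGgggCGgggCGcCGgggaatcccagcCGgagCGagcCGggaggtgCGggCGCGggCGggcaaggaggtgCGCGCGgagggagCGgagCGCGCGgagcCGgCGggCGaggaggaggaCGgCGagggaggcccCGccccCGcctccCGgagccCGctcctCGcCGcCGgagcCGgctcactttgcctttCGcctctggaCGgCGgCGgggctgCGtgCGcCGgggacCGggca
Kcnmb1: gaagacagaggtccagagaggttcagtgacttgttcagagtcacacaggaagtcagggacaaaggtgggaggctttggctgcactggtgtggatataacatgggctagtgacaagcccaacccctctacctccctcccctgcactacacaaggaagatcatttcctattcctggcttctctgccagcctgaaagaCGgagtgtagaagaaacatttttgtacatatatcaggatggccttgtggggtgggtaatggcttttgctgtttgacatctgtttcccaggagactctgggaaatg
Kcnn3: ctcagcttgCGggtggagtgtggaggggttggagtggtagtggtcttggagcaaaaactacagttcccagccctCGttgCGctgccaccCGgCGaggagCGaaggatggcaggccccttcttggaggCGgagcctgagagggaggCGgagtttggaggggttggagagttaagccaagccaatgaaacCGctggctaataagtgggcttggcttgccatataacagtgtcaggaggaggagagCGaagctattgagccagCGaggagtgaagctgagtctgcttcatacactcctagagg
Kcnj2: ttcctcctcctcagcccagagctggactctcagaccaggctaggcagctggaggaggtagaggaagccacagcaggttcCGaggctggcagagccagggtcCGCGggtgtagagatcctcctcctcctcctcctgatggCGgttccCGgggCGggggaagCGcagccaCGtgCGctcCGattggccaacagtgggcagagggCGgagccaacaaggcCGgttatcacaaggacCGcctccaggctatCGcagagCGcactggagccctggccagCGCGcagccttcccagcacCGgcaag
The promoter of Kcng3 thus carried as many CpG dinucleotides as that of Kcnmb4, yet only the latter lay under H3K56ac. The RefSeq start of Kcnmb4 was inside a peak of 967 bp, while the start of its GENCODE coding transcript lay 102 bp upstream of that peak.

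H3K56ac was present at the promoters of most potassium channel genes, but in narrow peaks. A promoter peak was found at 58 of the 92 genes (63.0%, interval 52.8 to 72.2%), against 69.3% of all autosomal protein-coding genes. The median of the widest promoter peak was 1929.5 bp (quartiles 1194 and 3050.5 bp), against 3488 bp (quartiles 2304 and 5000.5 bp) over all genes with one. In 48 of the 58 genes the widest promoter peak was narrower than that genome-wide median. A promoter peak of at least 5 kb was listed for 6 of the 92 genes (6.52%, interval 3.02 to 13.5%), against 17.3% of all genes. A TSS itself lay inside a peak in 44 genes (47.8%, interval 37.9 to 57.9%), against 63.5% of all genes. The background thus lay inside the counting interval for any promoter peak, and above it for a wide peak and for a peak over the start. The first of these depended on the window, since with a promoter of 1 kb the share was 55.4% (interval 45.3 to 65.2%) against 66.8%, and with the most upstream TSS only 54.3% (interval 44.2 to 64.2%) against 66.4%, both with the background above the interval.

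**Figure D1:**
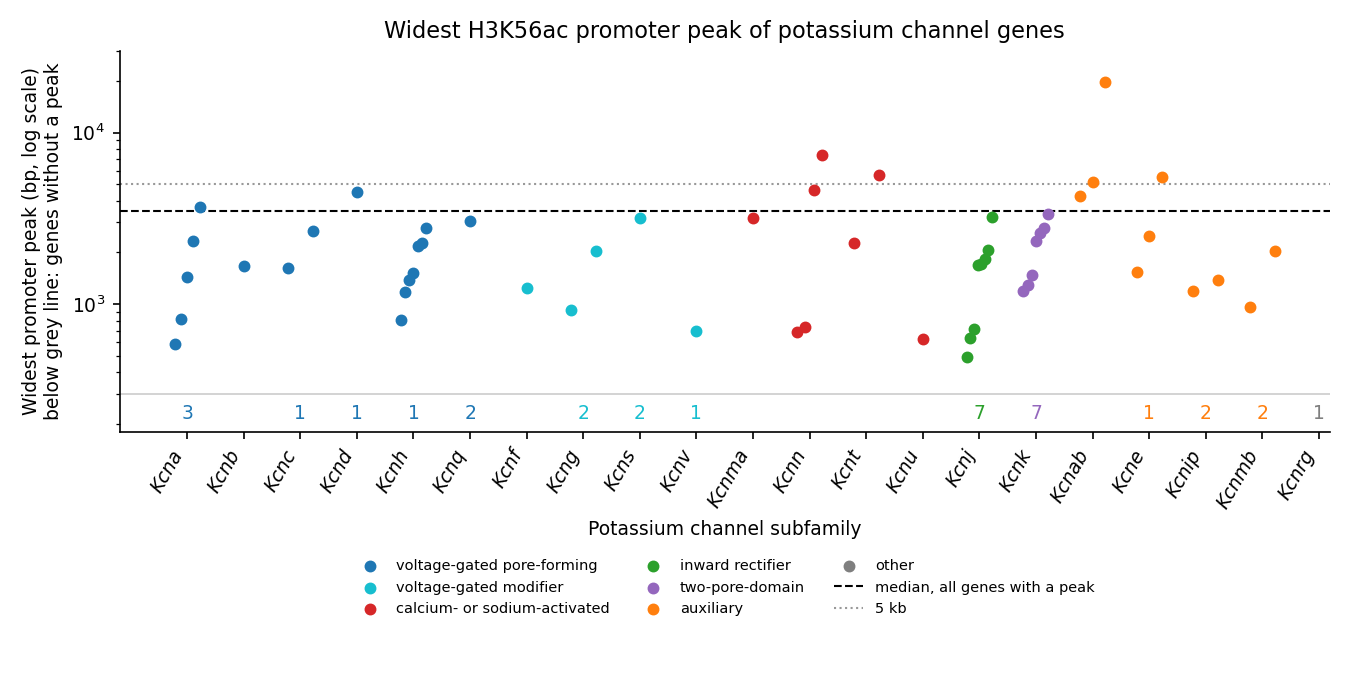
Width in bp, on a log scale, of the widest H3K56ac promoter peak of 88 potassium channel genes, by subfamily and coloured by class. Numbers under the grey line count genes without a promoter peak, the dashed line is the median of all genes with a peak (3488 bp) and the dotted line marks 5 kb, above which 5 of the plotted genes lie.

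The wide promoter peaks belonged to a few genes, and several were not at the gene's own start. The widest, of 19757 bp, was assigned to Kcnab1, which encodes a cytoplasmic β subunit of Kv channels, but it began 245 kb downstream of the most upstream TSS, beside the start of a short non-coding transcript near the 3′ end of the gene. The start of the coding transcript of Kcnab1 lay in a peak of 1526 bp. The peak of 5542 bp assigned to Kcne2, a single-pass auxiliary subunit, lay downstream of the gene and held the TSS of Smim11. The peak of 5164 bp at Kcnab3 was shared with the starts of Cntrob and Trappc1. At Kcnn3 and Kcnt2, in contrast, the peak covered a coding start of the gene and no start of another coding gene.

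The promoter peak of Kcnn3 was 7438 bp wide and that of Kcnt2, which encodes a sodium-activated channel, 5639 bp. Just under 5 kb were Kcnn1, which encodes SK1, with 4612 bp and Kcnd3, a fast-inactivating Kv4 channel, with 4499 bp, and just over it were Kcnab3 and Kcne2. Next came Kcnab2 with 4255 bp, shared with the start of Nphp4, Kcna2 with 3689 bp, Kcnk13 with 3340 bp and Kcnj8 with 3233 bp. Kcna2 encodes a delayed rectifier, Kcnk13 a two-pore-domain channel and Kcnj8 the pore Kir6.1 of the vascular ATP-sensitive channel. When only a peak that holds the start of a coding transcript was counted, 43 genes had one, with a median of 2075 bp. No share over all genes is given for this count, so it is not read as high or low. For a peak over any annotated TSS, the share was 47.8% of members and 63.5% of all genes. The medians were then 2052 and 3518.5 bp.

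Among the 29 voltage-gated pore-forming genes, 20 had a promoter peak (69.0%), with a median of 1927 bp. The Kcnh subfamily, the ether-à-go-go family of delayed and inwardly rectifying voltage-gated channels, had one at 7 of 8 genes, but with a TSS inside a peak at 3 genes only. Its widest was 2776 bp at Kcnh3, and Kcnh2, which encodes the cardiac ERG channel, had 6 promoter peaks of which the widest was 2189 bp at an internal start. In the Kcna subfamily of Shaker-type channels 5 of 8 genes had one, and in Kcnd 1 of 2. Kcnc2 (2654 bp) and Kcnc4 (1628 bp), which encode fast Kv3 channels, and Kcnb2 (1665 bp), which encodes a slow delayed rectifier, each had a peak over a start. Of the Kv7 channel genes, Kcnq5 had a promoter peak of 3069 bp, and at the neuronal Kcnq3 the nearest peak was 153.1 kb from a TSS.

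The silent modifiers had a promoter peak at 5 of 10 genes (50.0%), with a median of 1244 bp. Kcns3 had the widest (3166 bp), and Kcng2 (2029 bp), Kcnf1 (1244 bp), Kcng4 (929 bp) and Kcnv2 (693 bp) were the others. These subunits form no channel alone and assemble with Kcnb subunits.

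All 8 genes counted as calcium- or sodium-activated channels had a promoter peak (interval 67.6 to 100%), against 69.3% of all genes, which lay inside the interval. These 8 include Kcnu1, which is not among the genes named above as opened by calcium or sodium. The median width was 2724 bp, and 7 of the 8 had a TSS inside a peak, against 63.5% of all genes. The genes of this class had a median of 6.5 annotated TSSs, against 3 for all genes. Each TSS adds a place where a peak can be counted. Within the class the widths fell into separate ranges. Kcnn3, Kcnt2, Kcnn1, Kcnma1 (3166 bp) and Kcnt1 (2282 bp) were above 2 kb, and Kcnn4 (740 bp), Kcnn2 (683 bp) and Kcnu1 (627 bp) were below 1 kb. Kcnma1 encodes the large-conductance BK channel, Kcnt1 a sodium-activated channel, Kcnn4 the intermediate-conductance channel, Kcnn2 SK2 and Kcnu1 the sperm channel Slo3. The peaks of Kcnn4 did not hold a TSS and the nearest was 1675 bp from one. At Kcnn2 the peak of 683 bp lay beside internal starts, and the most upstream start was in a peak of 627 bp. The peak of Kcnu1 covered 2 internal starts, and its most upstream TSS was 4703 bp from the nearest peak. A promoter window of Kcnu1 also held the start of Ash2l, which was outside this peak.

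The inward rectifiers had a promoter peak at 8 of 15 genes (53.3%), with a median of 1698 bp. Kcnj8 (3233 bp) and Kcnj2 (2075 bp) led, followed by the neuronal Kcnj4 (1830 bp), the glial channel gene Kcnj10 (1712 bp) and its neighbour Kcnj9 (1684 bp). The peak of 1684 bp at Kcnj9 held no TSS, and the most upstream start of Kcnj9 lay in a separate peak of 376 bp. Kcnj13 (714 bp), Kcnj12 (636 bp) and Kcnj11 (489 bp) had a narrow peak that did not hold a TSS. The pores of the ATP-sensitive channels therefore differed. At Kcnj8 the peak covered both annotated starts, whereas at Kcnj11, which encodes the sarcolemmal and pancreatic pore Kir6.2, the peak stopped 774 bp upstream of the start.

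The two-pore-domain channels had a promoter peak at 7 of 14 genes (50.0%), with a median of 2340 bp. Kcnk13, Kcnk5 (2777 bp), Kcnk6 (2590 bp) and Kcnk4 (2340 bp) were above 2 kb, and Kcnk3 (1476 bp), Kcnk2 (1287 bp) and Kcnk7 (1193 bp) below. The window of Kcnk4, a mechanosensitive channel gene, also held the start of Catsperz. At the acid-sensitive channel gene Kcnk3 no TSS was inside a peak. Its promoter peaks lay beside an internal non-coding start, and its coding start was 33622 bp from the nearest peak. At Kcnk2 the peak covered 3 starts that lay 58441 to 58918 bp into the gene.

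The auxiliary subunits had a promoter peak at 10 of 15 genes (66.7%), with a median of 2267.5 bp. The 3 Kcnab genes all had one, Kcne had one at 3 of 4 genes, and Kcnip, which encodes calcium-binding partners of Kcnd channels, and Kcnmb each at 2 of 4. Kcnip2 (1378 bp) and Kcnip3 (1197 bp) had a peak and Kcnip1 and Kcnip4 had none. Kcnmb3 (2050 bp) and Kcnmb4 (967 bp) had a peak, and Kcnmb1 and Kcnmb2 had none. Kcnrg, a regulator of Kv channel assembly that belongs to no other class, had none.

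**Figure D2:**
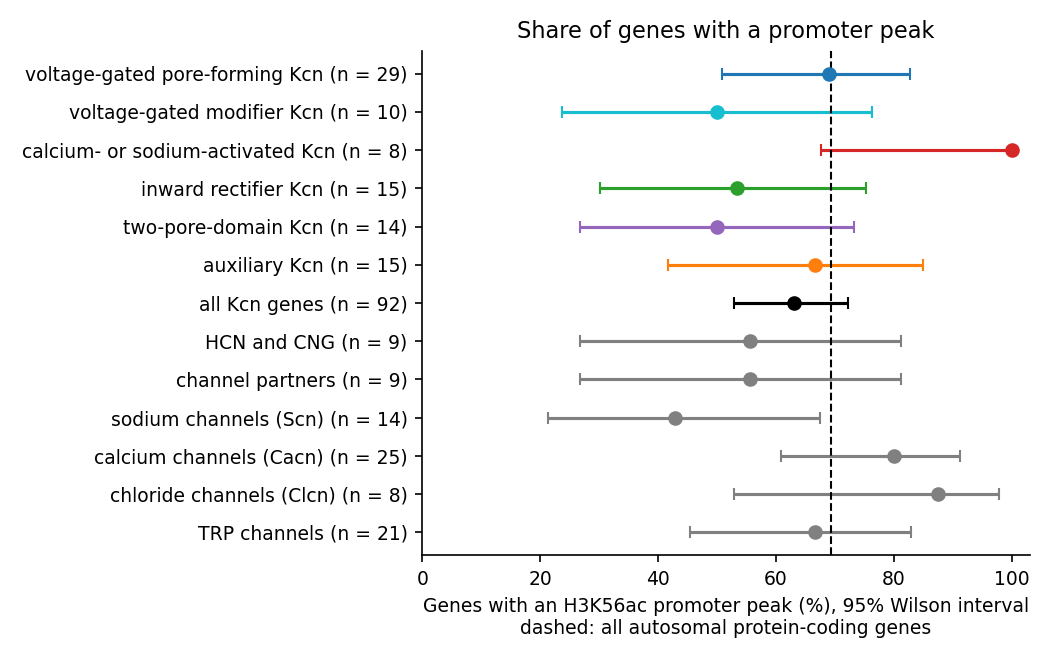
Share of genes with an H3K56ac promoter peak, in percent, for each class of potassium channel genes, for all 92 and for other channel families, with Wilson 95% intervals and the number of genes. The dashed line is the share of all autosomal protein-coding genes, 69.3%, and it lies inside the interval of each of the 6 classes and of all Kcn genes together.

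Across all genes, H3K56ac at promoters rose steeply in share with the CpG content of the promoter, and among the potassium channel genes the share differed little between CpG classes. CpG content was measured as the ratio of observed to expected CpG in 1 kb around the most upstream TSS. Over all autosomal protein-coding genes the share with a promoter peak was 29.0% at a ratio under 0.3, 73.5% from 0.3 to 0.6 and 95.1% at 0.6 and over. For potassium channel genes the shares were 57.7% (15 of 26, interval 39.0 to 74.5%), 63.3% (19 of 30, interval 45.5 to 78.1%) and 66.7% (24 of 36, interval 50.3 to 79.8%). The share of all genes lay below the interval of the potassium channel genes in the CpG-poor class, inside it in the middle class and above it in the CpG-rich class. The class under 0.3 holds 1438 olfactory and vomeronasal receptor genes, and without them the share of all genes in it was 36.7%, just under the lower end of the interval. Among genes with a promoter peak the Spearman correlation of its width with the CpG ratio was 0.06 over the 58 potassium channel genes and 0.29 over all 14418, both given as descriptions.

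**Figure D3:**
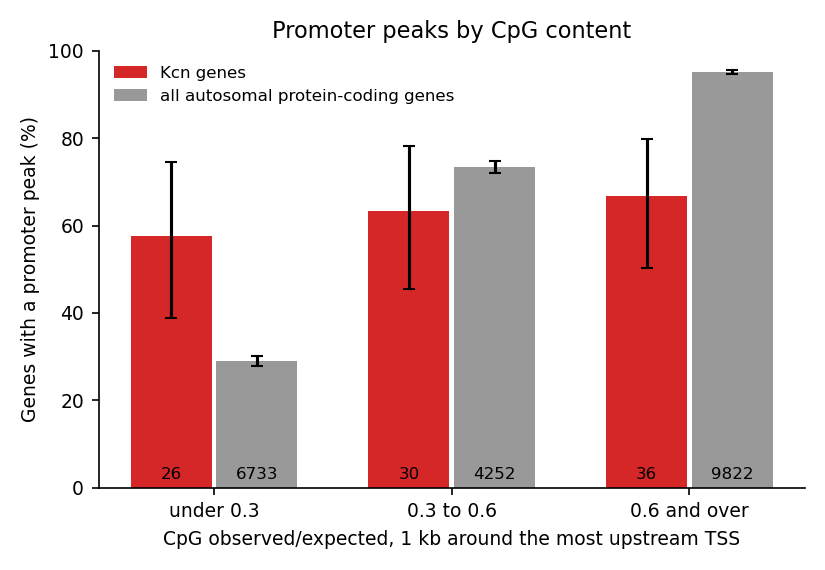
Share of genes with an H3K56ac promoter peak, in percent, in 3 classes of CpG observed-to-expected ratio, for potassium channel genes (red) and all autosomal protein-coding genes (grey), with Wilson 95% intervals and the number of genes at the foot of each bar. The grey bars climb from 29.0 to 95.1% and the red bars from 57.7 to 66.7%.

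The 12 CpG-rich potassium channel genes without a promoter peak included Kcng3, Kcnk9, Kcnc1, Kcnd2, Kcnk15, Kcnq3, Kcnk12, Kcns2, Kcnj6, Kcnk1 and Kcnh7. Kcnq3, Kcnc1, Kcnd2 and Kcnj6 among them encode channels best known from neurons. The highest ratio was 0.96 at Kcng3, whose promoter is printed above, followed by 0.91 at the acid-sensitive channel gene Kcnk9 and 0.86 at Kcnc1, a channel of fast-spiking neurons. At the other end, Kcne3 had the lowest ratio of any member, 0.07, at its most upstream TSS, which lay 1638 bp from the nearest peak. Its peak of 1539 bp covered 4 further starts, where the RefSeq promoter held 12 CpG. Kcnma1 had a ratio of 0.08 at its most upstream TSS, 9093 bp from the nearest peak. The RefSeq promoter of Kcnma1 lay wholly inside a peak and held 36 CpG. In the RefSeq promoters, the median CpG count per 300 bases was 9 for potassium channel genes and 14 for all autosomal protein-coding genes. It was 17 for the 31 potassium channel promoters wholly inside a peak and 8 for the 53 with no base in one, against 21 and 3 for all genes. The E-box CAGCTG, a letter string that reads the same on both strands, occurred in 24.7% of potassium channel promoters and 15.8% of all. The GC box GGGCGG, searched on both strands, occurred in 47.3% and 48.3%. The AP-1 string TGACTCA and the TATA box TATAAA, also searched on both strands, were rarer in potassium channel promoters. They occurred in 2.15% and 5.38% of these, against 4.66% and 12.15% of all. These are letter matches only, and promoters of one gene can overlap.

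Of the 34 genes without a promoter peak, 27 had no peak anywhere in the gene (79.4%), against 90.2% of all genes without a promoter peak. The nearest peaks were 3701 bp from a TSS at Kcnq1, which encodes the cardiac and epithelial Kv7.1, 4784 bp at Kcnj14, 6280 bp at Kcnj15, 6453 bp at Kcnrg and 7871 bp at Kcne1. The farthest were 580.0 kb at Kcnd2, 349.1 kb at Kcnh7, 301.7 kb at Kcna4, 277.6 kb at Kcnv1 and 182.7 kb at Kcnk9. Kcnd2 and Kcna4 encode A-type channels, Kcnh7 an ERG-type channel and Kcnv1 a silent modifier. Other genes without a promoter peak were Kcna5, Kcna6, Kcnc1, Kcng1, Kcng3, Kcnip1, Kcnip4, Kcnj1, Kcnj3, Kcnj5, Kcnj6, Kcnj16, Kcnk1, Kcnk10, Kcnk12, Kcnk15, Kcnk16, Kcnk18, Kcnmb1, Kcnmb2, Kcnq3, Kcns1 and Kcns2. A nearest peak more than 100 kb away was found for 8 of the 92 genes (8.70%), against 13.2% of all genes.

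Within the genes, H3K56ac was concentrated in a small number of members. Peaks covered a median of 2.88% of a potassium channel gene (quartiles 0 and 14.7%), against 8.45% for all genes, and 5.82% of their pooled length against 11.6%. At least 50% of the gene was covered in 5 genes (5.43%), against 10.3% of all genes, and at least 10 peaks lay in 7 genes (7.61%), against 7.68%. Potassium channel genes are longer than most, with a median length of 32181 bp against 17629 bp. Coverage was lower than that of all genes in each length class, with medians of 8.20 against 10.3% under 20 kb, 4.97 against 8.32% from 20 to 100 kb and 0.92 against 5.28% over 100 kb.

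The covered share was large in Kcna3 (75.8%), Kcnj10 (60.1%), Kcnn3 (56.8%), Kcnv2 (50.8%), Kcne4 (48.2%), Kcna2 (45.0%) and Kcnk7 (43.5%). Kcna3, which encodes the Kv1.3 channel known from lymphocytes and proliferating cells, is 1902 bp long and was covered by a single peak of 2328 bp over its only TSS. Kcnj10 and Kcnn3 are longer and stood out among genes of like length. Of 2203 genes within 20% of the length of Kcnj10 (32.9 kb) 63 were covered to that share, and their median was 8.89%. For Kcnn3 (155.0 kb) it was 24 of 750, with a median of 5.99%. Kcnj10 had only a narrow promoter peak, so that its coverage came mainly from the gene body and reached 82.1% and 85.2% in the last 2 of 5 equal stretches of the gene. Kcne4, an inhibitory auxiliary subunit, had 3 peaks around a start that was itself outside all of them.

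**Figure D4:**
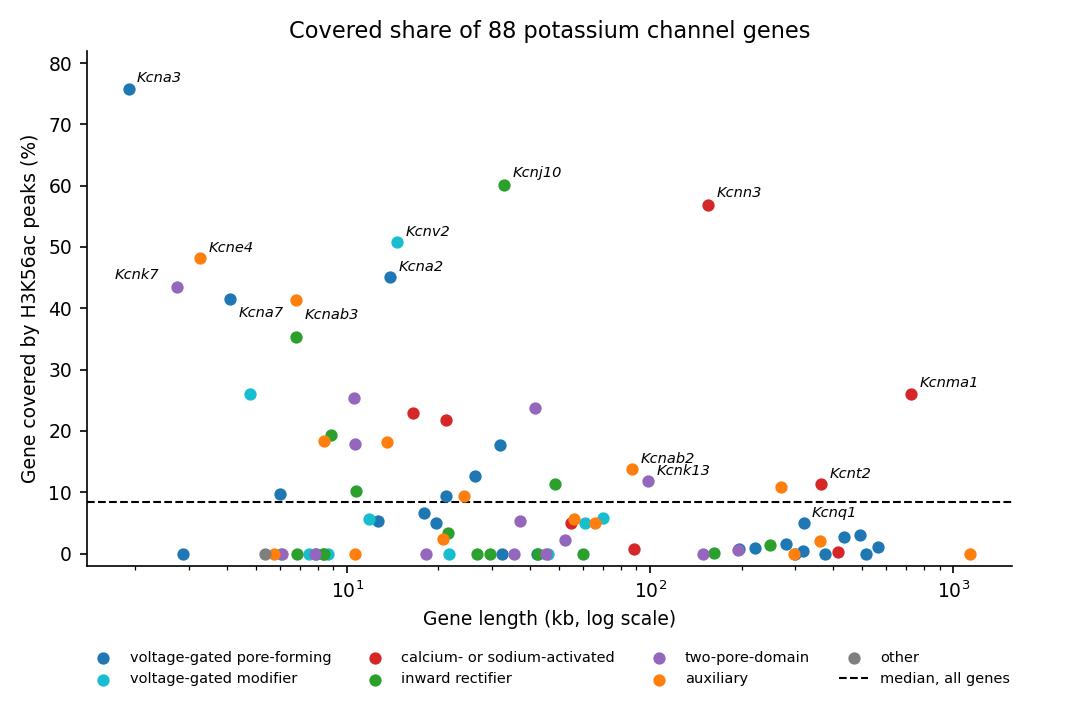
Share of each of 88 potassium channel genes covered by H3K56ac peaks, in percent, against gene length in kb on a log scale, coloured by class. Genes with at least 40% covered or at least 10 peaks are named, and the dashed line is the median of all autosomal protein-coding genes (8.45%).

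The most peaks lay in Kcnma1 (114), followed by Kcnn3 (42), Kcnt2 (27), Kcnq1 (14), Kcnab2 and Kcnk13 (12 each), Kcnj10 (11) and Kcnb2 (9). Kcnma1, the gene of the BK channel, has 725.1 kb on chromosome 14 (23289431 to 24014491, minus strand), of which 189.1 kb or 26.1% was covered. Of its 114 peaks 111 lay in introns only, and 7 of its 14 annotated starts lay in the peak of 3166 bp, which began 9093 bp downstream of the most upstream one. Coverage fell along the gene, from 46.2% of the first of 5 equal stretches over 41.9, 22.4 and 12.2% to 7.69% of the last, and the widest peak of 13.8 kb began 178.4 kb from the most upstream TSS. Of 76 genes within 20% of its length 4 reached its coverage, and their median was 1.59%. Kcnma1 alone held 31.3% of all bases covered in potassium channel genes, and without it the pooled share fell from 5.82 to 4.30%.

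Kcnn3, with 155.0 kb on chromosome 3 (89520164 to 89675132, plus strand), was covered along its whole length, with 66.1, 43.3, 80.2, 37.1 and 57.5% of the same 5 stretches covered. Its widest peak, of 15649 bp, lay in an intron 64.3 kb from the start. In Kcnt2 the peaks were in the first part of the gene, with 17.7, 24.6 and 14.3% of the first 3 stretches covered and none of the remaining 2. Kcnab1 showed the reverse, with 1.75% of the first stretch covered, 52.3% of the last and nothing between them. All 14 peaks of Kcnq1 lay in its introns, and none was in its own promoter windows. Kcnq1 was overlapped by 12 other annotated genes, and peaks at their starts were not examined. Together, the 8 genes counted as calcium- or sodium-activated channels, Kcnu1 among them, held 198 of the 387 peaks found in potassium channel genes. Of their pooled length 18.0% was covered, a value to which Kcnma1 and Kcnn3 contributed most.

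**Figure D5:**
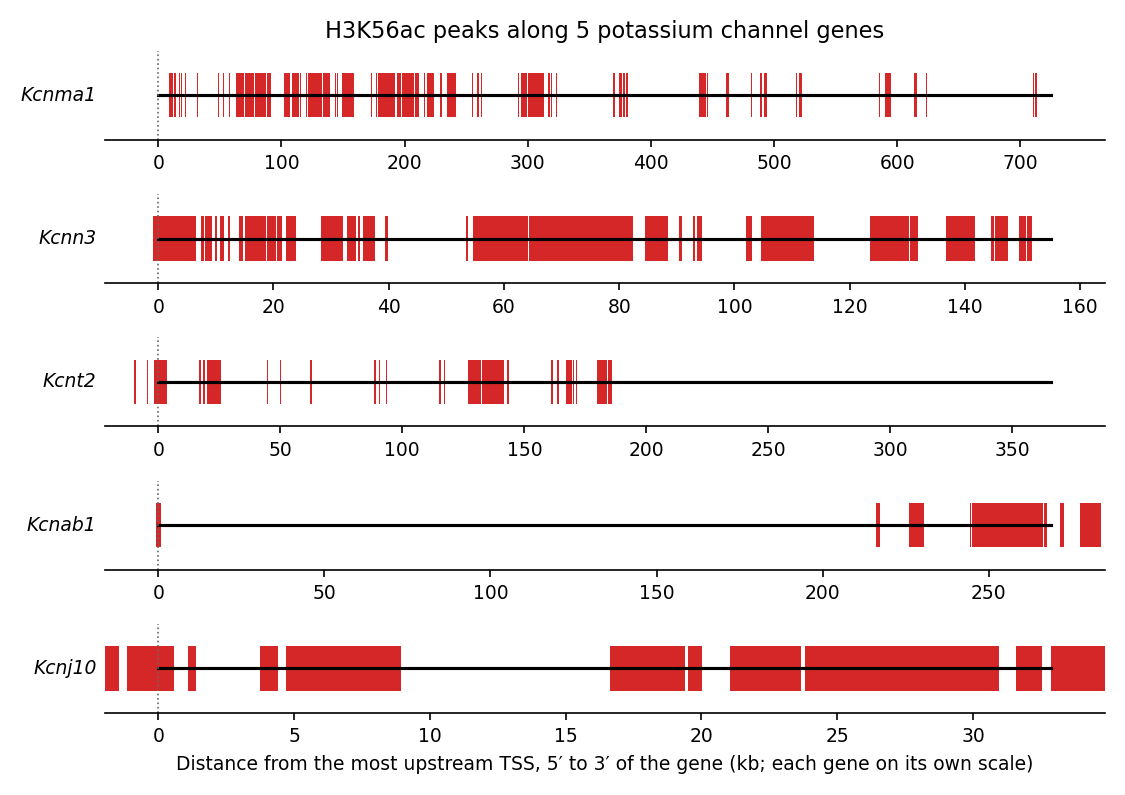
H3K56ac peaks (red blocks, to scale) along 5 potassium channel genes (black lines), by distance in kb from the most upstream TSS (dotted line), with flanking peaks also drawn and very near neighbours appearing joined. Peaks are dense in the 5′ part of Kcnma1, spread over the length of Kcnn3 and Kcnj10, absent from the last 2 of 5 equal stretches of Kcnt2, and gathered at the 3′ end of Kcnab1.

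Neighbouring members of the family did not always share their state. On chromosome 3, Kcna3, Kcna2 and Kcna10 lie within 200 kb of each other and all had a peak over a start, of 2328, 3689 and 823 bp. In the matching group of Shaker-type genes on chromosome 6, Kcna5 and Kcna6 had no promoter peak and Kcna1 had one of 584 bp that did not reach its start. On chromosome 11 the inward rectifier gene Kcnj2 had a peak of 2075 bp and the adjacent Kcnj16 had none, with the nearest 40.8 kb away. On chromosome 14 Kcnk5 had a peak and Kcnk16 had none. Kcnj5 and Kcnj1 on chromosome 9, and the overlapping genes Kcnip1 and Kcnmb1 on chromosome 11, had no promoter peak at all.

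A list of 15 members known from muscle or myoblasts had a promoter peak at 14 genes, Kcna5 being the exception, beside 69.3% of all genes. The list was drawn up with earlier results of these data known, so its count is not independent evidence. Its median width was 1583.5 bp, against 1929.5 bp for all members with a peak. Besides Kcnn3, Kcnj8, Kcnma1, Kcnq5, Kcna3 and Kcnj2, which were above 2 kb, the list held Kcnc4 (1628 bp), the Kv3.4 pore of skeletal muscle, and its partner subunit Kcne3 (1539 bp). Kcnk2 (1287 bp) and Kcnh1 (805 bp), an ether-à-go-go channel that acts before myoblast fusion, also had a peak over a start. At Kcna7, a Shaker-type channel of skeletal muscle, the start lay in a peak of 787 bp and the widest of the 3 promoter peaks, 1434 bp, lay downstream of it. The peaks of Kcnn4 (740 bp), Kcnj12 (636 bp) and Kcnj11 (489 bp) did not hold a TSS. For Kcnj12, which encodes Kir2.2, the only promoter peak lay 2620 bp from an internal start, whose RefSeq promoter held 4 CpG. Its CpG ratio of 0.92 was that of the most upstream TSS, 10031 bp from the nearest peak.

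Genes that act with these channels showed a like mixture. Of 9 partner genes outside the Kcn family 5 had a promoter peak. The sulfonylurea receptor gene Abcc9, whose product pairs with Kir6.1, had one of 1547 bp, and Abcc8, which pairs with Kir6.2, had none. The Kv4 partner Dpp6 had one of 927 bp and Dpp10 had none, and the Kv2 partner Amigo1 had one of 3076 bp. Of the γ subunits of the BK channel, Lrrc38 (3390 bp) and Lrrc26 (656 bp) had one and Lrrc52 and Lrrc55 had none. The related pacemaker and cyclic-nucleotide-gated channels had a promoter peak at 5 of 9 genes. Among other channel families it was 6 of 14 for sodium channels, 20 of 25 for voltage-gated calcium channels, 7 of 8 for chloride channels and 14 of 21 for TRP channels. With counts of this size the intervals overlapped that of the potassium channel genes (52.8 to 72.2%) in each family. The share of all genes, 69.3%, lay above the interval of the sodium channels (21.4 to 67.4%). It lay inside the interval of each of the other families and of the partner genes.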

How the data were processed

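The authors trimmed reads with Trim Galore, aligned them to mm10 with bowtie 1.1.2 keeping single alignments, removed duplicates with Picard, called peaks with MACS2, discarded ENCODE blacklisted regions and merged overlapping peaks with GenomicRanges. The deposited list gives chromosome, start and end (0-based, converted here to count from 1), and its deposited score column is 0 in every row. It holds 0 value columns per sample and does not name the libraries that were merged.

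Genes, TSSs and lengths were taken from GENCODE vM21, and base composition from GRCm38. For each gene, peaks overlapping a window of 3 kb on either side of any TSS by at least 1 bp, their widths, the covered share of the gene and the distance from the nearest TSS were computed with Python 3.11.15 and numpy 2.4.6. The functions were tested on simulated intervals. The main shares are set beside the same shares over all autosomal protein-coding genes. No test was made, because no value per sample is held in the list, and Sirt6mKO was not compared with Control.

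The members and gene lists were chosen with earlier results of these data known. Named genes were the 12 with the widest promoter peak, the 8 with the largest covered share, the 8 with the most peaks, the muscle list, the widest of each subfamily, members next to 5 kb, partner genes, and members without a promoter peak. Genes named for CpG content, neighbours on a chromosome and further members of a class were chosen after their values were seen. Alternatives were a promoter of 1 kb, a peak over the TSS, coding transcripts only, the most upstream TSS only, intervals of at least 500 bp, intervals less than 1 kb apart joined, the peak midpoint, and leaving out genes that share a promoter window. A few members are not reported here by name or plotted, but stay in all counts. The alternatives on CpG content were added after seeing the data.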

Additional observations from a re-analysis of the deposited data

How the results depend on the processing

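Of 30 alternatives to 5 results, 28 left the value inside its counting interval and 2 moved it beyond. Requiring a peak over the TSS lowered the share of members with a promoter peak from 63.0 to 47.8%, with 63.5% for all genes. Joining intervals less than 1 kb apart raised the median width from 1929.5 to 2465 bp, with 4356 bp for all genes. Both shifts follow from how the alternatives are built. With the CpG ratio taken as the highest among the TSSs of a gene, an alternative chosen after seeing the data, promoter peaks were found at 50.0, 66.7 and 66.0% of members in the classes from low to high, against 18.4, 66.6 and 94.9% of all genes. No paired analysis was possible because no replicate has values of its own. With a promoter of 1 kb or the most upstream TSS only, the share of members with a promoter peak was 55.4 or 54.3%, and the share of all genes (66.8 or 66.4%) then lay above the counting interval of that alternative. The merged list gives no peak strength, and counting intervals treat genes as independent, although neighbours and shared promoters are not.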
